A study of Caenorhabditis elegans with 10 samples.

Results

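The touch receptor *mec* genes described here were 10 genes of *Caenorhabditis elegans*, *mec-2*, *mec-4*, *mec-6*, *mec-7*, *mec-9*, *mec-10*, *mec-12*, *mec-14*, *mec-17* and *mec-18*, taken as a list of WormBase gene identifiers. All 10 had a row among the 18451 rows of the deposited table. They were listed for their role in touch, and several were known beforehand as targets of the transcription factor MEC-3, so a lower value in *mec-3* mutants is what earlier work on those genes describes. The table was measured on larvae of the L2/L3 stages grown at 25 °C, with 1 tiling array per sample. There were 3 arrays of PVD/OLL RNA from *mec-3(e1338)* mutants, 3 of PVD/OLL RNA from wild type (N2), 2 of whole *mec-3(e1338)* animals and 2 of whole wild-type animals (N2). The PVD/OLL RNA was recovered by mRNA tagging: PAB-1, which binds poly(A) tails, was given a FLAG tag, expressed from the *ser-2prom3B* promoter in both genotypes and precipitated together with its messages. Whole-animal samples were total RNA with no precipitation, and whether those animals also carried the tagging transgene is not given in the sources used here.

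Gentle touch to the body of the worm is sensed by the touch receptor neurons, whose processes run along the body wall. Their mechanosensory channel is built of the degenerin subunits MEC-4 and MEC-10 and works together with the stomatin-like protein MEC-2 and the paraoxonase-like protein MEC-6. The processes hold bundles of thick microtubules made of the β-tubulin MEC-7 and the α-tubulin MEC-12, which is acetylated by MEC-17, and an extracellular matrix that includes MEC-9 lies along them. The LIM homeodomain protein MEC-3 acts with the POU homeodomain protein UNC-86 to switch on touch receptor genes. It is also present in PVD, a nociceptive neuron of the body wall with a highly branched dendrite, where it is required for that branching. The OLL neurons are sensory neurons of the head. The comparison of mutant with wild-type PVD/OLL asks which messages in the precipitated RNA differ between the genotypes.

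Values are RMA summaries on the log2 scale, so 1 unit is 2-fold. Array medians over all rows lay between 6.51 and 6.77, and the 25th percentile of rows lay between 4.56 and 5.44. No detection call was used here, and a value near or below that percentile is not known to lie above background. Because probes differ between genes, levels were compared between arrays for 1 gene and never between genes. The other rows carry identifiers that the tables used here do not pair with names. For that reason *mec-3* itself, the defining markers of PVD and OLL and those of other tissues were not analysed here, and neither the genotype nor the tissue labels were checked by them. How much of a value in a PVD/OLL sample came from cells other than PVD and OLL was not tested. In RNA taken from many cells, fewer cells of a type and less RNA per cell cannot be told apart.

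In PVD/OLL, 4 of the 10 genes fell in *mec-3* mutants relative to wild type: *mec-17* (6.89-fold), *mec-7* (5.41-fold), *mec-10* (3.78-fold) and *mec-18* (2.88-fold), and none rose (limma, adjusted p under 0.05 over all rows). Of all rows, 3.55% were called lower and 2.58% higher in this comparison, which is 655 and 476 rows, or 583 and 709 once each array was centred on its median; the calls of the 10 genes were the same under that scaling. The other 6 genes did not pass, with differences of -0.86 to -0.18 (log2). Among them, *mec-4*, *mec-6* and *mec-14* had dim values on the *mec-3* arrays that are not known to lie above background, so no fold is given. The median difference over the 10 genes was -0.73 (log2), against -0.07 over all rows. All 10 differences were below 0, as were 57.1% of those of all rows.

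**Figure D1:**
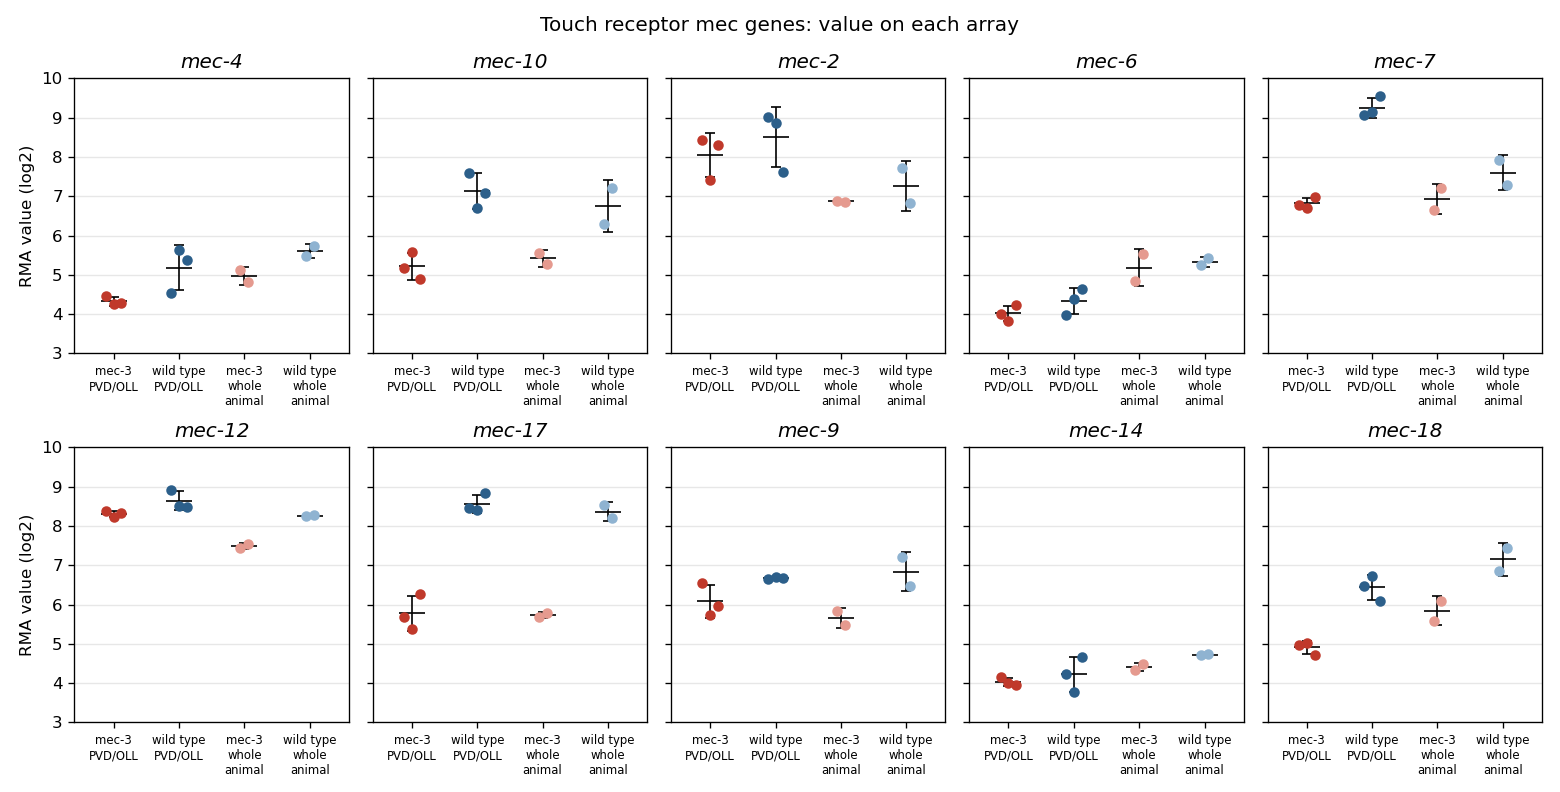
RMA value (log2) of each of the 10 genes on each of the 10 arrays, with 1 point per array and the mean and SD of each group in black. The *mec-3* PVD/OLL arrays lie below every wild-type PVD/OLL array for *mec-7*, *mec-10*, *mec-17* and *mec-18*, whereas the 2 groups overlap for *mec-2*, *mec-6* and *mec-14*.

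Among the microtubule genes, *mec-17* (WBGene00003178), which encodes the α-tubulin acetyltransferase, had the largest difference of the 10. It measured 5.69, 5.38 and 6.27 (log2) on the *mec-3* PVD/OLL arrays, against 8.46, 8.40 and 8.83 on the wild-type PVD/OLL arrays. The lowest wild-type array lay above the highest mutant array by more than the spread within either group. The group means were 5.78 ± 0.45 in *mec-3* and 8.56 ± 0.23 in wild type (SD, n = 3 each), a difference of -2.78 (log2, SE 0.26, limma adjusted p = 0.000653).

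*mec-7* (WBGene00003171), the β-tubulin of the thick microtubules, measured 6.78, 6.71 and 6.97 in *mec-3* PVD/OLL, against 9.08, 9.14 and 9.54 in wild-type PVD/OLL. Both groups were tight and far apart. Their means were 6.82 ± 0.14 in *mec-3* and 9.25 ± 0.25 in wild type (SD, n = 3 each), a difference of -2.43 (log2, SE 0.20, limma adjusted p = 0.000311). Among all rows, 81 had a lower p in this comparison. On their arrays the *mec-7* values stood between percentiles 52.5 and 55.9 in *mec-3* and between percentiles 85.0 and 89.9 in wild type.

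The α-tubulin gene *mec-12* (WBGene00003175), which other neurons are known to express too, did not pass. Its values were 8.37, 8.23 and 8.34 in *mec-3* PVD/OLL, against 8.92, 8.52 and 8.48 in wild-type PVD/OLL. The groups did not overlap, but the gap was narrow. The difference of -0.33 (log2) had a 95% interval of -0.76 to 0.11 (limma adjusted p = 0.381).

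Of the channel genes, the degenerin subunit gene *mec-10* (WBGene00003174) fell. In *mec-3* PVD/OLL it measured 5.19, 5.58 and 4.89, against 7.60, 6.71 and 7.10 in wild-type PVD/OLL. The groups stood more than 1 log2 unit apart at their nearest arrays. The mutant arrays stood between percentiles 28.7 and 38.6. With means of 5.22 ± 0.35 in *mec-3* and 7.13 ± 0.45 in wild type (SD, n = 3 each), the difference was -1.92 (log2, SE 0.28, limma adjusted p = 0.00696). MEC-10 is known to be made in PVD as well as in touch receptor neurons.

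Its partner subunit gene *mec-4* (WBGene00003168), known for expression in touch receptor neurons, was dim on the *mec-3* PVD/OLL arrays and on wild-type PVD/OLL replicate 1. Wild-type replicates 2 and 3 stood at percentiles 37.0 and 30.9. *mec-4* measured 4.46, 4.25 and 4.28 in *mec-3* PVD/OLL, against 4.54, 5.63 and 5.39 in wild-type PVD/OLL. Wild-type replicate 1 lay next to the mutant arrays, and the other wild-type arrays lay clearly above them. The difference of -0.86 (log2, 95% interval -1.51 to -0.20) did not pass (limma adjusted p = 0.127). Without wild-type replicate 1 it was -1.18 and passed (limma adjusted p = 0.0205), and with array weights it was -1.04 and passed (adjusted p = 0.0350). It did not pass in the other alternatives, among them those without wild-type replicate 2 (-0.63, limma adjusted p = 0.292) or 3 (-0.76, adjusted p = 0.244), and the adjusted p reached 0.303 without *mec-3* replicate 2.

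*mec-2* (WBGene00003166), whose stomatin-like product regulates the channel, varied among replicates. In *mec-3* PVD/OLL its values were 8.43, 7.41 and 8.31, against 9.02, 8.87 and 7.62 in wild-type PVD/OLL. The groups overlapped, since wild-type replicate 3 lay below 2 of the mutant arrays. The difference of -0.45 had a 95% interval of -1.41 to 0.50 (log2, limma adjusted p = 0.597), an interval that includes a fall of more than 2-fold and a rise. *mec-6* (WBGene00003170), which encodes a paraoxonase-like protein needed for the channel, was dim: 3.99, 3.84 and 4.23 in *mec-3* PVD/OLL, against 3.97, 4.39 and 4.64 in wild-type PVD/OLL. The groups overlapped at these low values, which stood at or below percentile 17.9 of their arrays (difference -0.31, 95% interval -0.83 to 0.20, limma adjusted p = 0.489).

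The matrix gene *mec-9* (WBGene00003173) did not pass in PVD/OLL. It measured 6.54, 5.74 and 5.97 on the *mec-3* arrays, against 6.66, 6.70 and 6.68 on the wild-type arrays. The wild-type arrays were nearly equal and *mec-3* replicate 1 lay just below them. The difference was -0.60 (log2, 95% interval -1.13 to -0.06, limma adjusted p = 0.188).

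The remaining genes encode enzyme-like proteins. *mec-18* (WBGene00003179), whose product resembles acyl-CoA ligases, measured 4.98, 5.03 and 4.73 in *mec-3* PVD/OLL, against 6.47, 6.74 and 6.10 in wild-type PVD/OLL. Its groups did not overlap, and the mutant arrays stood between percentiles 26.2 and 32.1, close to the 25th percentile. The fall was -1.53 (log2, SE 0.21, limma adjusted p = 0.00591). *mec-14* (WBGene00003176), which encodes an aldo-keto reductase-like protein, was dim: its values were 4.15, 4.02 and 3.96 in *mec-3*, against 4.24, 3.77 and 4.66 in wild type. They overlapped at percentiles 5.60 to 19.2, where a difference may not be detectable (difference -0.18, 95% interval -0.74 to 0.38, limma adjusted p = 0.727).

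In PVD/OLL, the 2 groups did not overlap for 7 of the 10 genes, all lower in *mec-3*. Over all rows the share without overlap was 27.4%, counted in either direction. The 4 calls were retained with each PVD/OLL array left out, at adjusted p of at most 0.0347. By size of the difference, 118 of the 18451 rows lay lower than *mec-17*, 149 lower than *mec-7*, 248 lower than *mec-10* and 368 lower than *mec-18*.

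**Figure D2:**
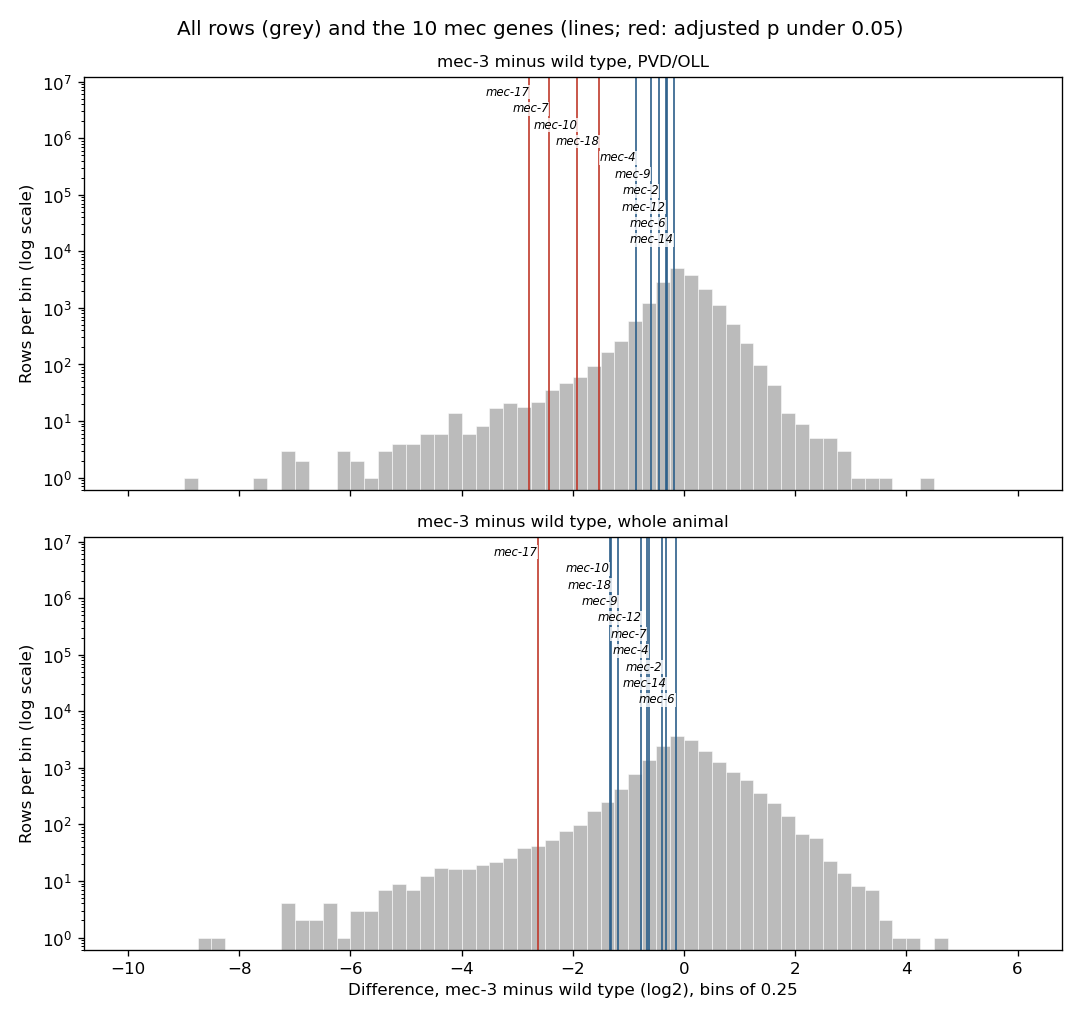
Number of rows (log scale) by difference between *mec-3* and wild type (log2, bins of 0.25 in grey) in PVD/OLL (top) and whole animals (bottom), with a line at each of the 10 genes. All lines lie left of 0, and the called genes (red) lie on the left shoulder, from -2.78 to -1.53 in PVD/OLL and at -2.63 in whole animals.

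Whole animals gave the same contrast on separate arrays, with 2 against 2. Here *mec-17* alone fell, by 6.20-fold, and none of the 10 rose. Of all rows, 2.88% were called lower and 2.67% higher, which is 531 and 492 rows. The counts were 447 and 271 after joint quantile normalization, but 532 and 607 once each array was centred on its median. The values of *mec-17* were 5.68 and 5.79 in *mec-3* whole animals, against 8.54 and 8.19 in wild-type whole animals. In each genotype they lay within the range of the PVD/OLL arrays or close to it. The difference was -2.63 (log2, SE 0.28, limma adjusted p = 0.00696). With a *mec-3* whole-animal array left out it was -2.57 without replicate 1 and -2.69 without replicate 2, but the call was lost (limma adjusted p = 0.0747 and 0.0754), in fits that had 3 arrays and called far fewer rows of the table.

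*mec-18* and *mec-10*, which fell in PVD/OLL, did not pass in whole animals, although their groups did not overlap. *mec-18* measured 5.59 and 6.10 in *mec-3* whole animals, against 6.86 and 7.45 in wild-type whole animals (difference -1.31, 95% interval -2.14 to -0.49, limma adjusted p = 0.0845). *mec-10* measured 5.57 and 5.27 in *mec-3*, against 6.29 and 7.22 in wild type (difference -1.34, 95% interval -2.25 to -0.42, limma adjusted p = 0.103). The *mec-10* value turned on the wild-type pair: the difference was -1.80 without wild-type replicate 1 and passed (limma adjusted p = 0.0325), and -0.88 without wild-type replicate 2 (adjusted p = 0.210). In those fits the lone wild-type array is assumed to vary like the *mec-3* pair, and the fit without replicate 1 called 1591 of all rows in place of 1023. Without *mec-3* replicate 1 or 2 the adjusted p of *mec-10* was 0.286 and 0.441 (limma).

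For *mec-7* the whole-animal groups stood close together. It measured 6.65 and 7.20 in *mec-3* whole animals, against 7.91 and 7.28 in wild-type whole animals, a difference of -0.67 (95% interval -1.52 to 0.18, limma adjusted p = 0.347). The highest mutant array and the lowest wild-type array were nearly equal.

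*mec-9* and *mec-12* did not pass in either kind of sample, with differences that lay farther from 0 in whole animals. *mec-9* measured 5.85 and 5.48 in *mec-3*, against 7.20 and 6.48 in wild type (difference -1.18, 95% interval -2.01 to -0.34, limma adjusted p = 0.111). *mec-12* measured 7.43 and 7.54 in *mec-3*, against 8.24 and 8.27 in wild type (difference -0.77, 95% interval -1.40 to -0.14, limma adjusted p = 0.155). Both pairs were well separated for *mec-12*, whose replicates lay within 0.2 of each other.

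The other genes had whole-animal differences of -0.63 to -0.15 that did not pass. *mec-4* measured 5.13 and 4.81 in *mec-3*, against 5.49 and 5.73 in wild type, and *mec-14* 4.34 and 4.48 in *mec-3*, against 4.71 and 4.75 in wild type. *mec-14* was dim in both genotypes and *mec-4* on the *mec-3* arrays, while the wild-type arrays of *mec-4* stood at percentiles 31.2 and 30.2. For both genes the mutant arrays lay below the wild-type arrays by less than 1 log2 unit. *mec-2* measured 6.88 and 6.87 in *mec-3*, against 7.71 and 6.82 in wild type, so its groups overlapped through wild-type replicate 2. *mec-6* measured 4.85 and 5.52 in *mec-3*, against 5.25 and 5.43 in wild type, where the wild-type arrays lay between the mutant ones.

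**Figure D3:**
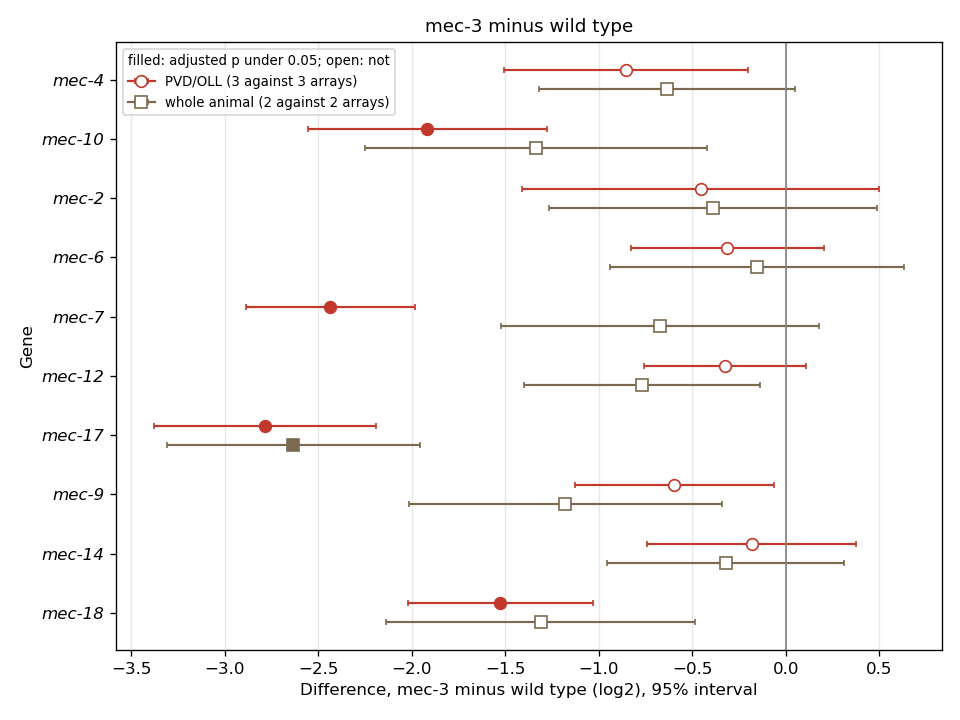
Difference between *mec-3* and wild type (log2, point) with its 95% interval (bar) for each gene, in PVD/OLL (circles) and in whole animals (squares). *mec-17* is called in both kinds of sample, *mec-7*, *mec-10* and *mec-18* in PVD/OLL, and the whole-animal intervals are mostly the wider ones.

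All 10 whole-animal differences were below 0, with a median of -0.72 (log2) against -0.03 over all rows, of which 52.5% were below 0. Groups did not overlap for 8 of the 10 genes, all lower in *mec-3*, and for 50.5% of all rows, counted in either direction. With 2 arrays per group the count of 8 is a weak description. When the spread was estimated from all 10 arrays, 5 of the 10 genes passed in whole animals, *mec-9* (limma adjusted p = 0.0326), *mec-10* (0.0387), *mec-12* (0.0486), *mec-17* (0.000354) and *mec-18* (0.0157), at the same differences. That fit called 13.4% of all rows, against 5.54% with the 4 whole-animal arrays alone.

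The *mec-3* difference in PVD/OLL was set against that in whole animals by an interaction term in the fit of all 10 arrays, called here the difference of differences. None of the 10 genes passed (limma, adjusted p under 0.05), and of all rows 0.00542% did. At an unadjusted p under 0.05 the counts were 1 of the 10 genes and 9.8% of all rows. The gene was *mec-7*, with a difference of differences of -1.76 (log2, 95% interval -2.61 to -0.92, unadjusted p = 0.000755, limma adjusted p = 0.173), and 74 rows had a lower p. For *mec-17* the value was -0.15 (95% interval -1.02 to 0.72, limma adjusted p = 0.952), an interval that leaves room for a 2-fold difference between the kinds of sample. For *mec-9* and *mec-12* it was 0.58 and 0.44 (limma adjusted p = 0.721 and 0.701).

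PVD/OLL samples were set against whole animals within each genotype. Precipitation was done on the PVD/OLL samples only, and the arrays of the 2 kinds may have been normalized in separate runs: arrays of 1 kind shared 1 to 9 identical values, and a PVD/OLL and a whole-animal array shared 0. The effects of the cell type, of the precipitation and of the normalization cannot be told apart here. The median over all rows was -0.28 (log2) in *mec-3*, against -0.21 in wild type, and became 0.02 and 0.03 when all arrays were quantile normalized together. That step turned 1400 higher and 3521 lower calls over all rows into 1900 and 1702 in *mec-3*, and 1773 and 3496 into 2439 and 2216 in wild type. The comparison in *mec-3* and that of *mec-3* with wild type share the mutant PVD/OLL arrays, and likewise for wild type, so the values are only set side by side.

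In *mec-3*, *mec-12* was higher in PVD/OLL than in whole animals and *mec-6* and *mec-18* were lower, where 7.59% of all rows were called higher and 19.1% lower. In wild type *mec-7* was higher and *mec-6* lower, where 9.61% of all rows were called higher and 18.9% lower (limma, all 10 arrays). The other genes did not pass, 7 in *mec-3* and 8 in wild type, so 1 of these 10 touch genes was called enriched in each genotype. The 10 genes had a median difference of -0.16 in *mec-3*, against 0.02 in wild type.

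The *mec-7* message was 3.15-fold higher in wild-type PVD/OLL, at 9.25 ± 0.25 (SD, n = 3), than in wild-type whole animals, at 7.60 ± 0.45 (SD, n = 2), a difference of 1.65 (log2, SE 0.27, limma adjusted p = 0.00243). In *mec-3* the PVD/OLL level was 6.82 ± 0.14 (SD, n = 3) and the whole-animal level 6.93 ± 0.39 (SD, n = 2), a difference of -0.11 (95% interval -0.70 to 0.48, limma adjusted p = 0.784). The test of the difference between these 2 enrichments is the same difference of differences as above, which did not pass. The wild-type call was kept in every setting tried, with differences of 1.34 to 1.97.

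*mec-12* was 1.77-fold higher in *mec-3* PVD/OLL than in *mec-3* whole animals (difference 0.82, SE 0.21, limma adjusted p = 0.0170). In wild type its difference was 0.38 (limma adjusted p = 0.188), although the PVD/OLL arrays all lay above the whole-animal arrays in both genotypes. The *mec-3* call was lost without *mec-3* PVD/OLL replicate 1 or 3 or either *mec-3* whole-animal array, at an adjusted p of 0.0532 to 0.0985 and differences of 0.77 to 0.88. For *mec-17* no difference between the kinds of sample was called: its difference in *mec-3* was 0.04 (95% interval -0.57 to 0.66) and in wild type 0.19 (95% interval -0.42 to 0.81).

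*mec-2* had differences above 0 that did not pass, 1.18 in *mec-3* (2.26-fold, limma adjusted p = 0.0743) and 1.24 in wild type (2.36-fold, limma adjusted p = 0.0601). In wild type the groups overlapped, since PVD/OLL replicate 3 (7.62) lay below whole-animal replicate 1 (7.71). In *mec-3* the groups did not overlap. Whether *mec-2* passed turned on single arrays. In *mec-3* it passed without *mec-3* PVD/OLL replicate 2 (difference 1.50, limma adjusted p = 0.0489) and without wild-type PVD/OLL replicate 3 (adjusted p = 0.0301), which enters only through the shared spread. In wild type it passed without wild-type PVD/OLL replicate 3 (difference 1.68, limma adjusted p = 0.0119) and without wild-type whole-animal replicate 1 (difference 1.69, adjusted p = 0.0485). Without other arrays it lay farther from the threshold: in *mec-3* the difference was 0.98 without *mec-3* PVD/OLL replicate 1 (limma adjusted p = 0.183), and leaving out a *mec-3* whole-animal array gave an adjusted p of 0.216 (replicate 1) and 0.217 (replicate 2). In wild type the difference was 0.79 without wild-type whole-animal replicate 2 (limma adjusted p = 0.358), and 0.98 and 1.06 without wild-type PVD/OLL replicates 1 and 2 (adjusted p = 0.168 and 0.151). It also passed in *mec-3* with array weights (limma adjusted p = 0.0311) and with the 5 *mec-3* arrays alone (adjusted p = 0.0286). A fit with the replicate number as a block called it in both genotypes (limma adjusted p = 0.0492 in *mec-3* and 0.0418 in wild type).

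**Figure D4:**
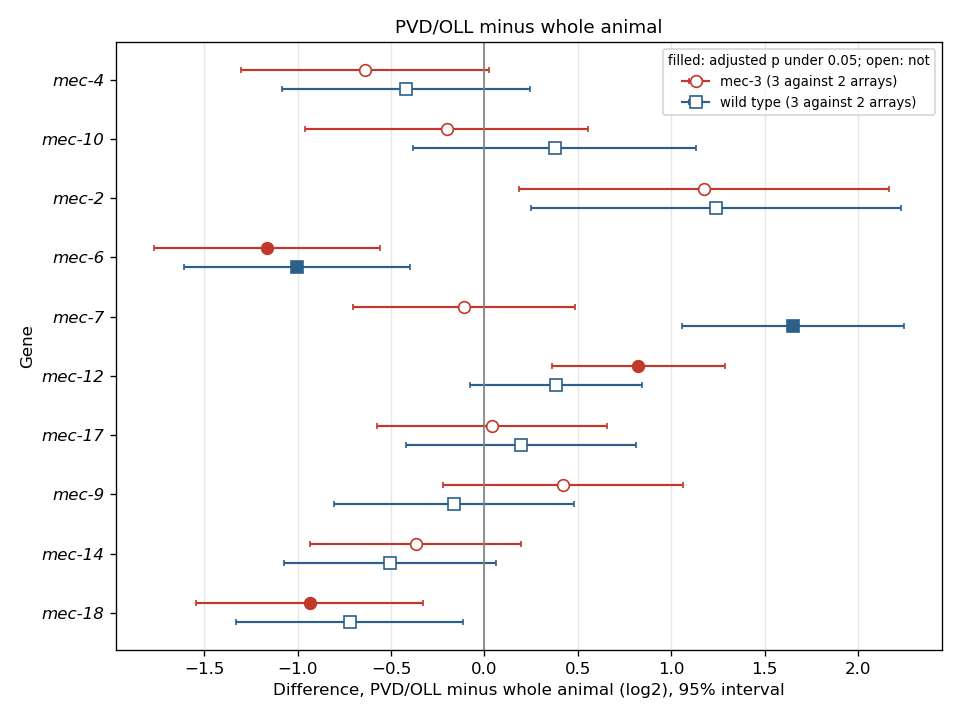
Difference between PVD/OLL and whole animals (log2, point) with its 95% interval (bar) for each gene, in *mec-3* (circles) and wild type (squares). The points of the 2 genotypes lie farthest apart for *mec-7*, with -0.11 in *mec-3* against 1.65 in wild type, while *mec-6* lies below 0 and *mec-2* above 0 in both.

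The dim gene *mec-6* was lower in *mec-3* PVD/OLL than in *mec-3* whole animals (difference -1.17, log2, limma adjusted p = 0.0127) and lower in wild-type PVD/OLL than in wild-type whole animals (difference -1.01, log2, limma adjusted p = 0.0213). Its PVD/OLL values lay at or below percentile 17.9 and are not known to lie above background, so no fold is given. After joint quantile normalization these were -0.69 and -0.51 and did not pass (limma adjusted p = 0.0845 and 0.166). The *mec-3* call was also lost without *mec-3* whole-animal replicate 2 (-0.83, limma adjusted p = 0.114), and the wild-type call without wild-type PVD/OLL replicate 1 (-0.82, adjusted p = 0.0611) or wild-type whole-animal replicate 2 (-0.92, adjusted p = 0.114), and with the 5 wild-type arrays alone (-1.01, adjusted p = 0.0584).

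*mec-18* was 1.91-fold lower in *mec-3* PVD/OLL than in *mec-3* whole animals (difference -0.94, limma adjusted p = 0.0303), a call lost without any 1 of the 5 *mec-3* arrays (-1.19 to -0.68, limma adjusted p = 0.0535 to 0.208) and after quantile normalization (-0.56, adjusted p = 0.206). In wild type its difference of -0.72 did not pass (limma adjusted p = 0.0717), but it passed without wild-type whole-animal replicate 1 (-1.02, adjusted p = 0.0435), whereas without replicate 2 it was -0.43 (adjusted p = 0.399). *mec-4* and *mec-14* moved across the threshold in 1 genotype each when 1 array was left out: *mec-4* in *mec-3* without wild-type PVD/OLL replicate 1 (-0.64, limma adjusted p = 0.0481, in place of 0.134; 0.0351 with the 5 *mec-3* arrays alone) and *mec-14* in wild type without wild-type PVD/OLL replicate 3 (-0.72, adjusted p = 0.0387, in place of 0.158). The differences of *mec-10*, -0.20 in *mec-3* and 0.38 in wild type, and of *mec-9*, 0.42 in *mec-3* and -0.16 in wild type, did not pass in any setting tried.

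Likeness between profiles was measured as the root mean square difference over the 10 arrays between rows centred on their own mean, as a description. The member nearest to *mec-17* was *mec-7*, at 0.73 (log2), with 125 other rows nearer. For *mec-10* it was *mec-18*, at 0.59, with 186 rows nearer. Over the 10 genes the number of rows nearer than the nearest member ran from 106 for *mec-7* to 6042 for *mec-14*. It was 3525 for *mec-4*, 3131 for *mec-6* and 1934 for *mec-12*. Rows were not scaled to equal spread, so these numbers depend on how much a gene varies as well as on its profile. The row nearest to *mec-17* was WBGene00019471, at 0.31, which was -2.60 (log2) in *mec-3* against wild type in PVD/OLL and -2.25 in whole animals. The row nearest to *mec-7* was WBGene00018052, at 0.33, with -2.21 in PVD/OLL and -1.07 in whole animals. Those rows were picked for their likeness, so their differences are not further evidence, and no name is paired with them here.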

How the data were processed

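The authors deposited 1 log2 value per gene identifier and array. They used RMA, per the submitters' processing notes, a method that corrects background, normalizes between arrays and summarizes probes. Not given in the sources used here were its version, the gene models, the genome build and any filter. The log2 scale was inferred from the range of the values. The table had 0 missing values and 0 further columns. Gene names of the 10 members come from the list that defines them. The name table used here (WBcel235, 46926 rows) holds the symbols of all 10 but 0 of the identifiers, so the other lists fixed by symbol (touch neuron fate, degenerin, stomatin, paraoxonase-like and tubulin families, and cell type markers) were not analysed.

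Groups came from the sample titles, which call the samples biological replicates. Each comparison was fitted with limma 3.58.1 (lmFit, eBayes; R 4.3.3), without a filter, two-sided, with Benjamini-Hochberg adjustment over all 18451 rows; a row was called at an adjusted p under 0.05. The *mec-3* comparisons used the 6 PVD/OLL or the 4 whole-animal arrays, the others all 10. Standard errors and 95% intervals are the moderated ones. The fits were also run on simulated data, but no result of that run is given here. The number of arrays limits the precision. All 10 members are named, with the nearest rows by profile. Members, lists and alternatives were chosen with earlier results of these data known. Replicate numbers were not taken as pairs: deviations of same-numbered *mec-3* and wild-type PVD/OLL arrays correlated at -0.06 to 0.04. For the whole-animal arrays the correlation was 0.05. With 2 arrays per group both replicate numbers must give the same value, so the whole-animal correlation says little about pairing. Between same-numbered PVD/OLL and whole-animal arrays the values were 0.19 and -0.03 in wild type and -0.0016 and 0.0092 in *mec-3*, so not every pair exceeded 0.1. The alternatives were joint quantile normalization, centring of each array, each array left out in turn, other arrays in the fit, a replicate block, array weights, a robust prior with an intensity trend, an adjusted p under 0.10, and removal of the dimmest 50% or 25% of rows.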

Additional observations from a re-analysis of the deposited data

How the results depend on the processing

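Of the 10 genes, 4 were called in PVD/OLL (*mec-3* against wild type), and 4 to 5 with each array left out. The count was 2 with the dimmest 50% of rows left out, a setting that kept 4 of the 10 genes in the table. In whole animals 1 was called, 5 with all 10 arrays in the fit, 2 at an adjusted p under 0.10, and 0 to 2 with an array left out. For PVD/OLL against whole animals in *mec-3*, 3 were called, 1 after quantile normalization, 1 without the dimmest 50%, 5 with the 5 *mec-3* arrays alone, and 0 to 4 with an array left out. In wild type 2 were called, 1 after quantile normalization, 1 without the dimmest 50%, 1 without the dimmest 25%, 1 with the 5 wild-type arrays alone, 4 at an adjusted p under 0.10, and 1 to 4 with an array left out. The difference of differences called 0 of the 10 in every setting. With the replicate block the counts were 4, 1, 4, 3 and 0 in the same order, and *mec-2* was the gene added to both enrichments. Over all rows, 843 were called in PVD/OLL with the block, 452 to 1036 with an array left out and 1806 with array weights, in place of 1131. In whole animals the count was 718 after quantile normalization and 2481 with all 10 arrays, in place of 1023 of 18451 rows. Without the dimmest 50% it was 1592 of 9226 rows (17.3%, in place of 5.54%). Of all rows, the enrichment in *mec-3* called 26.7%, 37.2% with the 5 *mec-3* arrays alone, 19.5% after quantile normalization and 10.4% to 30.6% with an array left out. In wild type it called 28.6%, 13.3% with the 5 wild-type arrays alone, 25.2% after quantile normalization and 12.5% to 30.6% with an array left out. The cause of a changed call was not tested in any setting.

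No called difference changed sign. Differences called in neither fit crossed 0 as follows (log2). For *mec-3* against wild type, *mec-14* in PVD/OLL was 0.046 with array weights and lay between -0.41 and 0.034 with an array left out. In whole animals *mec-6* was 0.027 after quantile normalization and -0.49 to 0.18 with an array left out, and *mec-2* was -0.84 to 0.056. For PVD/OLL against whole animals in *mec-3*, quantile normalization gave 0.18 for *mec-10* and 0.15 for *mec-14*, centring gave 0.011 for *mec-7* and the replicate block -0.15 for *mec-17*. With an array left out *mec-17* was -0.20 to 0.24 and *mec-7* -0.39 to 0.17. In wild type *mec-4* was 0.011 after quantile normalization, and with an array left out *mec-10* was -0.085 to 0.84 and *mec-9* -0.52 to 0.20. The difference of differences after quantile normalization was 0.18 for *mec-17* and 0.18 for *mec-18*. With an array left out it was -0.40 to 0.048 for *mec-17*, -0.51 to 0.081 for *mec-18*, -0.51 to 0.38 for *mec-2*, -0.54 to 0.0012 for *mec-4*, -0.50 to 0.18 for *mec-6* and -0.089 to 0.36 for *mec-14*.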
